A study of Homo sapiens with 6 samples.

Results

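Long noncoding RNAs were followed in HepG2, an established line of human hepatoma cells that still makes many hepatocyte proteins, after an siRNA against the kinase UHMK1. They were taken by name from the genes read by a probe set with exactly 1 gene symbol: symbols that start with LINC or SNHG, symbols that end in -AS1, -AS2, -DT or -IT1, and 7 RNAs listed by name (GAS5, DANCR, ZFAS1, H19, NEAT1, MALAT1 and EPB41L4A-AS1). Of 33616 genes measured 2090 bear such a symbol, and 138 of them had a mean log2 level of at least 7 over all 6 arrays. These 138 RNAs are described here. They were chosen by their symbol and by that mean level, which pools both groups and does not use the difference between them. Some RNAs still reached it through 1 group alone. After scrambled and UHMK1 siRNA the means were 6.94 and 7.58 for CCDC18-AS1, 6.74 and 7.34 for LYRM4-AS1, and 6.89 and 7.14 for LINC01003. In the other direction they were 7.73 and 6.92 for LINC02693, 7.68 and 6.99 for PXN-AS1, and 7.13 and 6.95 for SLC44A3-AS1. The counts below include such RNAs. Cells received 30 nM of a scrambled siRNA (3 arrays) or of a UHMK1-specific siRNA (3 arrays) by lipid transfection, and total RNA was taken after 24 h. Both groups were transfected, and the labels say neither how many sequences the UHMK1 siRNA held nor whether the arrays of a group stand for separate cultures. P-values therefore speak of the spread among these arrays alone, and that spread could be technical.

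A long noncoding RNA is a transcript that is not translated into a known protein and is often named for its place: LINC for a transcript between genes, -AS for one antisense to a gene, -DT for one that starts divergently beside a gene, and -IT for one within an intron of a gene on the same strand. A snoRNA host gene is spliced so that small nucleolar RNAs, the guides for chemical modification of ribosomal RNA, are released from its introns, while the spliced remainder is often short-lived. MALAT1, which collects at nuclear speckles, is among the most studied of these RNAs in liver cancer.

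By suffix and prefix the 138 RNAs were 71 antisense, 45 LINC, 12 divergent and 6 sense intronic RNAs, 3 snoRNA hosts and MALAT1. The RefSeq table classes 117 of them as lncRNA and 1 as antisense RNA, and 20 had no match there by Entrez gene ID. The group is thus one of long noncoding RNAs and hardly one of snoRNA hosts. By RefSeq position a snoRNA lies within 6 of the 138. Only 6 snoRNA host symbols had a probe set of their own, and 3 of these reached the mean of 7. The symbols of GAS5, DANCR and most SNHG genes stand together with those of the small RNAs inside them, on 25 probe sets with several symbols, which were not used here. The same holds for NEAT1 and H19, while ZFAS1 has a probe set of its own that lies below the limit. Of the 7 RNAs listed by name, MALAT1 and EPB41L4A-AS1 are thus among the 138. Just above the limit lay LINC01003 (mean 7.013, change 0.25, or 0.11 without UHMK1 siRNA array 2), SLC44A3-AS1 (7.04, -0.17) and LYRM4-AS1 (7.043, 0.60), and just below it HS1BP3-IT1 (6.972, -0.25), ITGA9-AS1 (6.968, 0.62) and LINC00339 (6.965, -0.34), where a change is the log2 difference of UHMK1 siRNA from scrambled siRNA.

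The start regions of 3 of the 5 RNAs that changed are shown, those that the RefSeq table holds; LINC01128 and OVCH1-AS1 are named only. The windows are from RefSeq on GRCh38.p14, run from 250 bases before to 50 bases after the start, and are written in the direction of transcription. LINC00941 is at chr12:30795431-30795730 on the plus strand, RAB11B-AS1 at chr19:8390642-8390941 on the minus strand and EMC3-AS1 at chr3:9986643-9986942 on the plus strand. Capitals mark matches, on either strand, to 6 motifs: the E-box CACGTG, the AP-1 site TGACTCA, the cyclic AMP response element TGACGTCA, the GC box GGGCGG, the CCAAT box (its own letters) and the TATA box, spelled TATAAA.
LINC00941: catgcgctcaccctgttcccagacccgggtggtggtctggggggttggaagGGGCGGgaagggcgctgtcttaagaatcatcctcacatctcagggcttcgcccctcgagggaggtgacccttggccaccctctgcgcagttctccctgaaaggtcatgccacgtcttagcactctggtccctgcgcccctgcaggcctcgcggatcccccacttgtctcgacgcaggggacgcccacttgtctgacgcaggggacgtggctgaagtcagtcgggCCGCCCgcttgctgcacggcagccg
RAB11B-AS1: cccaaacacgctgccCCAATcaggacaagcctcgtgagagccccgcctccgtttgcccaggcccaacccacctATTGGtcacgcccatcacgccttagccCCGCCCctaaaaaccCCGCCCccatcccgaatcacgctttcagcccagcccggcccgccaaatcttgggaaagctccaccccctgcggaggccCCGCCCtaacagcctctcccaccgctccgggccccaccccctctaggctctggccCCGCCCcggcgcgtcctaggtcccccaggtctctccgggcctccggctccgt
EMC3-AS1: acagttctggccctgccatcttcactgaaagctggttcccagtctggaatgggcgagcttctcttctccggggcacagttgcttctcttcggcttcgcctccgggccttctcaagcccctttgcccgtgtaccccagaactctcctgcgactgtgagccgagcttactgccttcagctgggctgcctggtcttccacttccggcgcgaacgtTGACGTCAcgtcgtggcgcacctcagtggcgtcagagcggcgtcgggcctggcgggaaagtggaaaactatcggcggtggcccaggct
LINC00941 held GC boxes that begin at positions -199 and 26 from the start. RAB11B-AS1 held 4 GC boxes, at -150, -135, -57 and -2, and CCAAT at -235 and -177. EMC3-AS1 held the cyclic AMP response element at -38 and none of the other motifs. No motifs overlapped in these windows. A start region was at hand for 92 of the 138 RNAs. The GC box lay in 56.5% of these, against 44.6% of 27305 genes with such a window, CCAAT in 41.3% against 35.7%, and the cyclic AMP response element in 3.26% against 1.98%. TATAAA lay in 5.43% against 12%, the E-box in 7.61% against 7.43% and the AP-1 site in 7.61% against 4.92%. The median GC content was 63% against 58.3%, and the median ratio of observed to expected CpG was 0.79 against 0.58. The 27305 genes were not held to a mean of 7, as the 92 RNAs were, so the sets differ in level as well as in kind. These are descriptions of letters, and no binding was measured.

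The arrays gave log2 values made with RMA, a method that corrects background, evens out the arrays and sums up the probes of a probe set. A level is that of a probe set, so levels of different RNAs were not set against each other, and the number of arrays limits the precision. UHMK1 stood between 11.24 and 11.74 after scrambled siRNA and between 7.80 and 8.36 after UHMK1 siRNA, so the target fell on all 3 arrays. Hepatocyte markers were present, with ALB at a mean of 18.71 and AFP at 18.76, and 0 of the 9 measured changed. FGB came nearest, at a change of 0.70 (limma's adjusted p = 0.0668), with every UHMK1 siRNA array above every scrambled one. Summed as a mean over the list, the immune markers ranged from 6.70 to 6.75 after scrambled siRNA and from 6.54 to 6.59 after UHMK1 siRNA, the endothelial ones from 4.10 to 4.43 and from 4.02 to 4.31, the fibroblast and stellate ones from 6.08 to 6.23 and from 6.04 to 6.37, and the biliary ones from 10.60 to 10.71 and from 10.52 to 10.67, with 0 of these 20 markers changed. Within these lists PTPRC (mean 5.04), PECAM1 (3.85) and LUM (3.90) were dim, while CD68 (11.62) of the immune, COL1A1 (10.19) of the fibroblast and KRT19 (14.60), SOX9 (12.61) and EPCAM (15.47) of the biliary markers were bright. UHMK1 siRNA array 2 stood apart from the rest, with a median of -0.24 from the scrambled siRNA mean over the 10876 genes of mean 7 or more, against -0.02 and -0.05 for UHMK1 siRNA arrays 1 and 3.

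Few of the long noncoding RNAs changed. LINC00941, LINC01128 and EMC3-AS1 fell after UHMK1 siRNA, and RAB11B-AS1 and OVCH1-AS1 rose, at an adjusted p under 0.05 in limma over all 33616 genes. The 2 rises are 1.45% of the 138 RNAs, against 0.726% of all genes, 1.77% of the genes of mean 7 or more and 2.15% of the protein-coding ones among these. The 3 falls are 2.17%, against 2.67% of all genes, 7.46% of the genes of mean 7 or more and 8.94% of the protein-coding ones. The share that rose is near the background. The share that fell is below that of the genes of mean 7 or more, a difference for which no test was made. Those genes were not matched to the RNAs in level: 3762 of the 10876 lay at a mean of 7 to 9, against 92 of the 138 RNAs. At an unadjusted p under 0.05 there were 16 higher and 13 lower RNAs, 11.6% and 9.42%, against 8.52% and 21.9% of the genes of mean 7 or more. The siRNA arrays lay wholly above the scrambled ones for 23 RNAs (16.7%, against 7.74% of all genes and 12.4% of the genes of mean 7 or more) and wholly below them for 18 (13%, against 13.3% and 27.4%). The median change of the 138 RNAs was 0.06 on the log2 scale, with 74 changes above 0 and 63 below, while it was -0.10 over the genes of mean 7 or more and -0.14 over the 8323 protein-coding ones among them. Fewer cells and less RNA per cell cannot be told apart in such samples, and values evened out by RMA show neither as an amount.

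**Figure D1:**
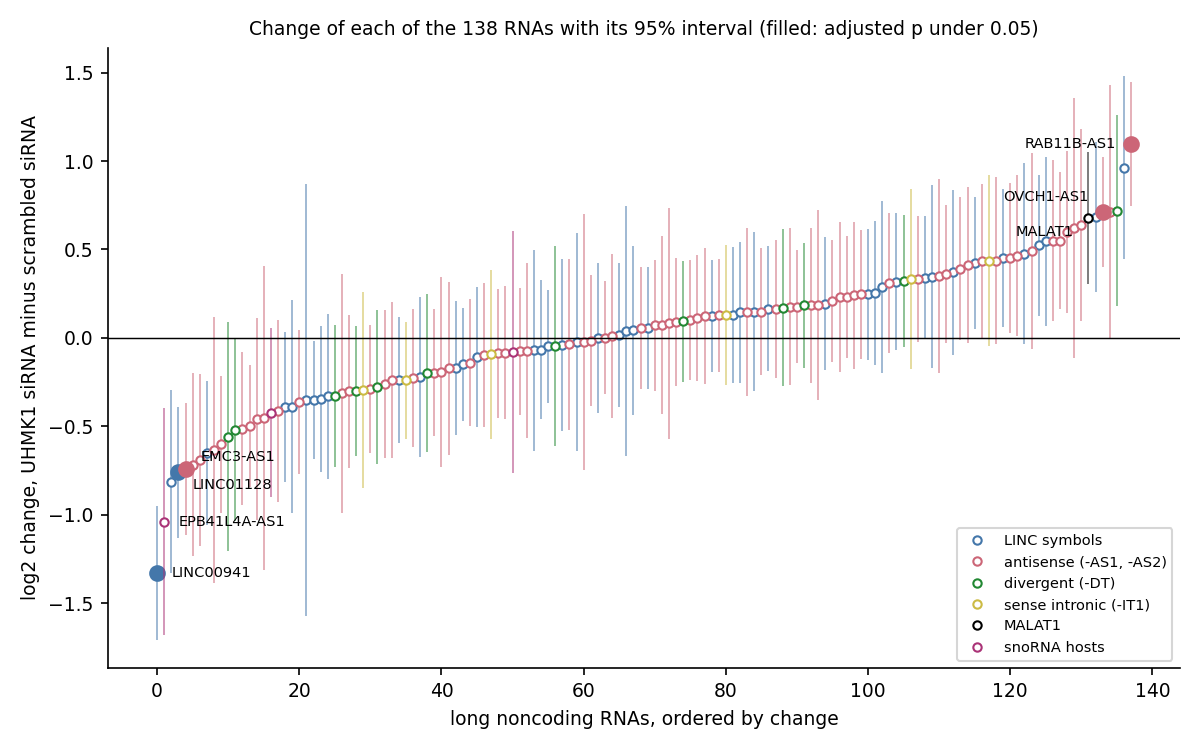
Log2 change (UHMK1 siRNA minus scrambled siRNA, y axis) of each of the 138 long noncoding RNAs, ordered by change along the x axis and coloured by class; lines are 95% confidence intervals from limma and filled points have an adjusted p under 0.05. The changes run from -1.33 for LINC00941 to 1.10 for RAB11B-AS1, and 5 points are filled.

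The medians were also taken array by array. The median deviation of the 138 RNAs from the scrambled siRNA mean was 0.09, -0.01 and 0.04 on UHMK1 siRNA arrays 1, 2 and 3, and for the protein-coding genes of mean 7 or more it was -0.05, -0.28 and -0.10. Each UHMK1 siRNA array thus had a higher median for the noncoding RNAs than for those protein-coding genes. The median of the noncoding RNAs was not above 0 on array 2. These deviations all share the same scrambled siRNA mean, so they are not separate checks. UHMK1 siRNA array 2 was the lowest of its group for 75 of the 138 RNAs (54.3%) and for 62.2% of the genes of mean 7 or more. Without that array the median of the RNAs was 0.05 and that of the genes of mean 7 or more -0.04, and 5 RNAs rose (3.62%, against 1.82% of those genes) and 1 fell (0.72%, against 5.56%). The 5 were RAB11B-AS1, OVCH1-AS1, MALAT1, LINC00265 and FAM86B2-DT, and the fall was that of LINC00941. Split at a mean of 9, dimmer and brighter RNAs were alike: the median was 0.06 for the 92 RNAs of mean 7 to 9 (-0.07 for all genes of that range) and 0.05 for the 46 of mean 9 or more (-0.11). This depends on where the split lies, as the median of the 80 RNAs of mean 8 or more was 0.003.

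**Figure D2:**
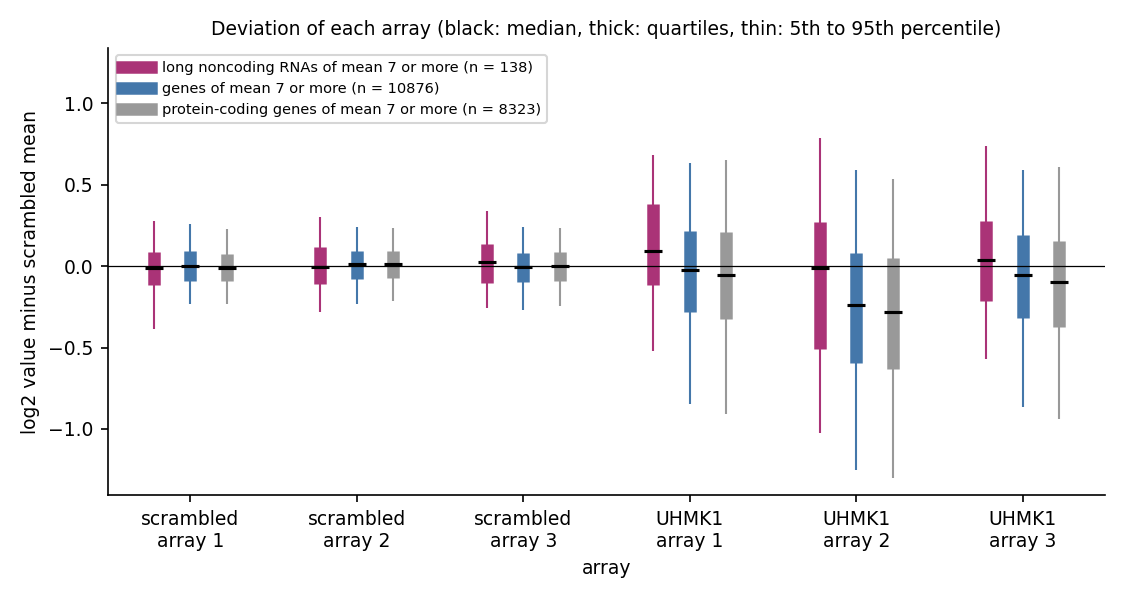
Deviation of each array from the scrambled siRNA mean (log2, y axis) for the 138 long noncoding RNAs, the 10876 genes of mean 7 or more and the 8323 protein-coding genes among them; black marks are medians, thick bars quartiles and thin lines the 5th to 95th percentiles over genes. On UHMK1 siRNA array 2 the medians are -0.01, -0.24 and -0.28.

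Among the LINC RNAs 2 of 45 fell and 0 rose. Of all genes 2.67% fell and 0.726% rose, and of those of mean 7 or more 7.46% and 1.77%. Those shares stand beside each class count below, and no class was tested as a set. LINC00941, a transcript studied for growth and spread in several cancers and also known as lncRNA-MUF, read 8.96, 8.76 and 8.67 on scrambled siRNA arrays 1, 2 and 3 and 7.71, 7.33 and 7.36 on UHMK1 siRNA arrays 1, 2 and 3. Every UHMK1 siRNA array was below every scrambled one. LINC00941 fell by 1.33 on the log2 scale (SE 0.17, 95% confidence interval -1.71 to -0.95, limma's adjusted p = 0.00382), from 8.80 ± 0.15 to 7.47 ± 0.21 (SD, n = 3), to 39.8% of its level. Its call held in all 6 fits that leave out 1 array, at changes of -1.45 to -1.25. LINC01128 read 9.34, 9.20 and 9.33 after scrambled siRNA and 8.51, 8.31 and 8.77 after UHMK1 siRNA, again without overlap. LINC01128 fell by 0.76 (SE 0.16, adjusted p = 0.0407). It kept its call without UHMK1 siRNA array 3 (-0.88) and lost it without any other array, at changes of -0.81 to -0.65.

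Of all 45 LINC RNAs, 24 had a change above 0, and the class had a median of 0.04. LINC00328-2P read 7.59, 7.12 and 7.35 and then 8.42, 8.68 and 7.85, a change of 0.96 (adjusted p = 0.0595) that passed without UHMK1 siRNA array 3 (1.20). LINC00265 read 9.17, 9.19 and 9.04 and then 9.77, 9.51 and 10.17, at 0.68 (adjusted p = 0.0991), and passed without UHMK1 siRNA array 2 (0.84). On the lower side LINC02693 stood at -0.81 (adjusted p = 0.108) and LINC00266-1 at -0.65 (adjusted p = 0.100).

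Among the bright LINC RNAs, LINC01000 read 11.68, 11.72 and 11.95 after scrambled siRNA and 12.37, 12.02 and 12.53 after UHMK1 siRNA (change 0.52, adjusted p = 0.180). LINC01002 read 14.83, 14.78 and 14.95 and then 15.21, 15.01 and 15.36 (0.34, adjusted p = 0.342). In both the UHMK1 siRNA arrays lay above the scrambled ones without passing the test. LINC00674 and LINC03009 stood at -0.02 and -0.05, with 95% confidence intervals that span 0 in both cases.

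Of 71 antisense RNAs 2 rose and 1 fell, with a median change of 0.09. RAB11B-AS1, described in breast cancer cells as an RNA that hypoxia induces, read 7.59, 7.38 and 7.69 after scrambled siRNA and 8.50, 8.75 and 8.70 after UHMK1 siRNA. All 3 siRNA arrays were higher than any scrambled one. RAB11B-AS1 rose by 1.10 (SE 0.16, 95% confidence interval 0.74 to 1.45, adjusted p = 0.00672), which is 2.14-fold on the deposited scale, and passed in all 6 fits without 1 array (1.01 to 1.17). OVCH1-AS1, named for OVCH1, a gene of a serine protease-like protein, read 9.96, 10.04 and 10.10 and then 10.70, 10.77 and 10.77. The groups lay apart, and the SDs within them, 0.07 and 0.04, were the smallest among the 5 RNAs that changed. OVCH1-AS1 rose by 0.71 (SE 0.14, adjusted p = 0.0263), kept its call without UHMK1 siRNA array 2 and lost it without any other array, at changes of 0.68 to 0.75.

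EMC3-AS1, antisense to the gene of a subunit of the membrane protein insertion complex of the endoplasmic reticulum, read 11.74, 11.63 and 11.88 after scrambled siRNA and 11.05, 10.77 and 11.20 after UHMK1 siRNA. The groups did not overlap. EMC3-AS1 fell by 0.74 (SE 0.17, adjusted p = 0.0461) and did not pass in any of the 6 fits without 1 array (-0.84 to -0.63). SBF2-AS1 (-0.72, adjusted p = 0.154), PXN-AS1 (-0.69, adjusted p = 0.145) and ZNF407-AS1 (-0.63, adjusted p = 0.428) lay lower without passing. ZNF407-AS1 read 9.01, 7.64 and 8.85 on UHMK1 siRNA arrays 1, 2 and 3, and its change was -0.203 without array 2. PEG3-AS1, from the imprinted PEG3 region, stood at 0.71 (adjusted p = 0.331), with 10.71 on UHMK1 siRNA array 2 against 9.44 and 9.73 on arrays 1 and 3, and at 0.338 without array 2. CCDC18-AS1 stood at 0.64 (adjusted p = 0.234), or 0.385 without scrambled siRNA array 2, and LYRM4-AS1 at 0.60 (adjusted p = 0.181). The bright antisense RNAs RBMS3-AS2 (15.32), SVIL-AS1 (12.30) and FGD5-AS1 (11.99) stood at 0.15, 0.31 and -0.41, none of them past the test. FGD5-AS1 read 12.00, 11.25 and 12.10 on the UHMK1 siRNA arrays, and its change was -0.147 without array 2. That of SVIL-AS1 was 0.162 without UHMK1 siRNA array 1.

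**Figure D3:**
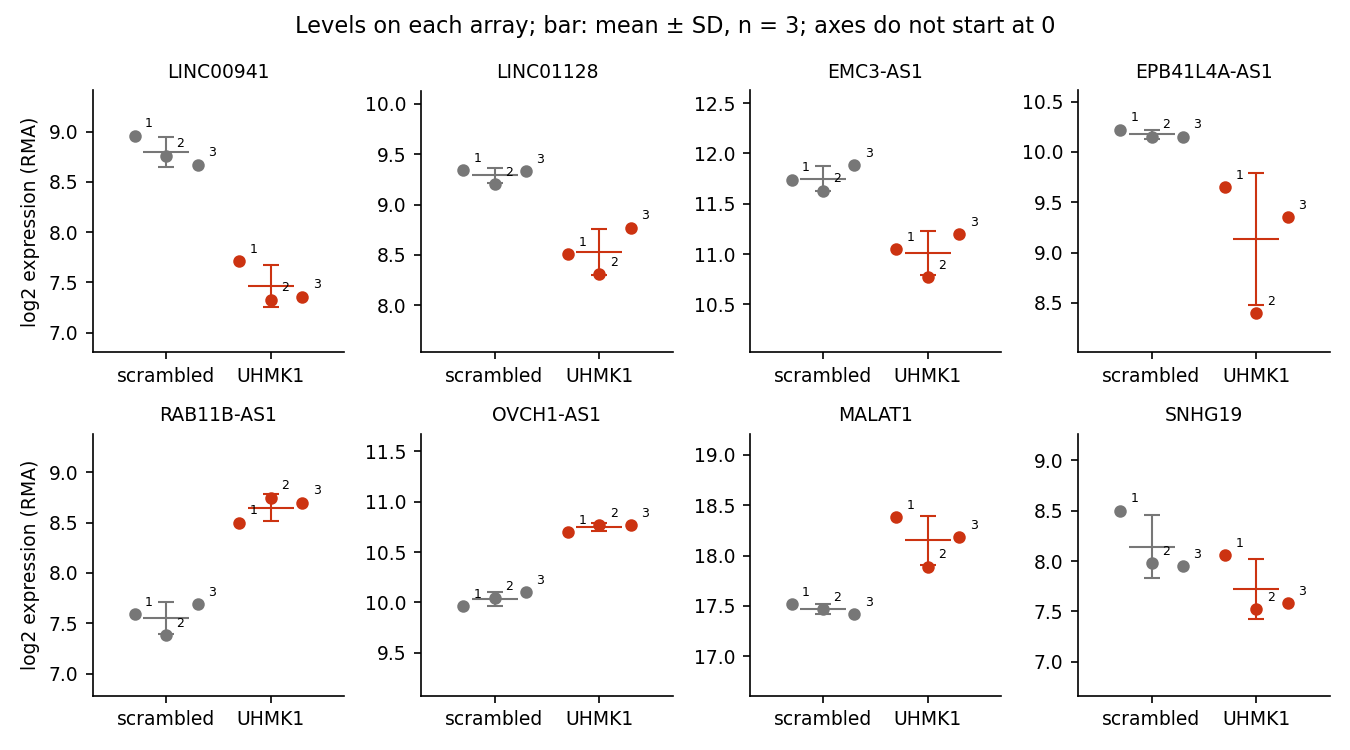
Log2 level on each array (numbered points) of the 5 RNAs that changed and of EPB41L4A-AS1, MALAT1 and SNHG19, after scrambled siRNA and UHMK1 siRNA; bars are the mean ± SD of 3 arrays, and each y axis spans the same log2 range without starting at 0. The groups are apart for every RNA but SNHG19.

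None of the 12 divergent RNAs passed. Their median was -0.12 and their range -0.56 to 0.72, and UHMK1 siRNA array 2 was the lowest of its group for 9 of them. FAM86B2-DT had the top of that range, with 9.55, 9.32 and 9.70 after scrambled siRNA and 10.44, 9.70 and 10.59 after UHMK1 siRNA (adjusted p = 0.171), and it passed without UHMK1 siRNA array 2 (0.99). None of the 6 sense intronic RNAs passed either, with a median of 0.02 and a range of -0.30 to 0.44.

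All 3 RNAs with a snoRNA host symbol had changes below 0 and none passed. By RefSeq position a snoRNA also lies within THAP9-AS1 (-0.50), STX18-AS1 (-0.07) and TMEM161B-DT (0.18), which are named for that alone. None of these passed, the snoRNAs within them were not measured, and the strands of those snoRNAs are not given. EPB41L4A-AS1, which carries SNORA13 in an intron and is known as a p53-linked brake on glycolysis, read 10.22, 10.15 and 10.15 after scrambled siRNA and 9.65, 8.40 and 9.35 after UHMK1 siRNA. The groups did not overlap, but UHMK1 siRNA array 2 was far below arrays 1 and 3. The change was -1.04 (SE 0.28, 95% confidence interval -1.68 to -0.40, adjusted p = 0.0974). Leaving that array out gave -0.673, with an adjusted p of 0.0737. SNORA13 itself read 7.28, 8.04 and 7.24 and then 6.82, 7.19 and 7.19, again apart, at -0.45 (adjusted p = 0.415). The reference table does not give its strand. SNHG19, the host of SNORD60, read 8.50, 7.98 and 7.95 and then 8.06, 7.52 and 7.58, at -0.42 (adjusted p = 0.398), and SNORD60 stood at -0.17 (adjusted p = 0.7345), both with overlapping groups, and SNHG19 stood at -0.245 without scrambled siRNA array 1. SNHG33 stood at -0.08 (95% confidence interval -0.77 to 0.61), with 8.22, 6.88 and 7.76 on the UHMK1 siRNA arrays. ZFAS1 was read by a dim probe set of its own, below the limit at a mean of 6.34, and stood at 0.10 (adjusted p = 0.903).

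MALAT1, a nuclear RNA of splicing speckles whose 3′ end gives rise to the small RNA mascRNA, read 17.52, 17.47 and 17.42 after scrambled siRNA and 18.38, 17.89 and 18.18 after UHMK1 siRNA. Every UHMK1 siRNA array was above every scrambled one. The change was 0.68 (SE 0.17, 95% confidence interval 0.31 to 1.05, adjusted p = 0.0643), short of the threshold, and it passed without UHMK1 siRNA array 2 (0.81, adjusted p = 0.0329). A second probe set with the same symbol, but without a gene ID, read 9.41, 9.82 and 10.13 and then 11.15, 12.76 and 10.98, a change of 1.84 (SE 0.43, adjusted p = 0.0577 over 36176 probe sets). Both probe sets were higher on all 3 UHMK1 siRNA arrays, while array 2 was the lowest of its group in the first and the highest in the second. RefSeq lists an antisense RNA, TALAM1, over part of MALAT1, and which transcript the second probe set reads was not tested. Among the RNAs with several probe sets, the others had changes of one sign in all their probe sets except LINC00623, LINC01347, SLC16A1-AS1 and UBA6-DT, none of which passed in any probe set.

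Of the 90 RNAs whose symbol is built on that of another gene, 80 had that gene measured. Among those 80 genes 1 fell and 0 rose. It was SLC12A2, the sodium, potassium and chloride cotransporter, which fell by 0.70 (adjusted p = 0.0488), and passed in none of the 6 fits without 1 array (-0.80 to -0.60), while SLC12A2-DT stood at -0.20 (adjusted p = 0.716). The partners of the antisense RNAs that changed did not pass: RAB11B, a small GTPase of recycling endosomes, stood at 0.19 (95% confidence interval -0.21 to 0.59), EMC3 at 0.06 (-0.24 to 0.37) and OVCH1, which was dim, at 0.02 (-0.34 to 0.38). The interval of RAB11B lies below that of RAB11B-AS1, and that of EMC3 above that of EMC3-AS1. The difference between an antisense RNA and its partner was not tested. PXN (-0.04), ZNF407 (-0.05), CCDC18 (0.04), SBF2 (0.31), LYRM4 (-0.31), SLC44A3 (0.33), FAM86B2 (-0.18), RBMS3 (0.05), SVIL (-0.22) and FGD5 (-0.09), the partners of other RNAs named above, did not pass either. EPB41L4A, dim at a mean of 4.03, stood at -0.29 (adjusted p = 0.618). KCTD21-AS1 (-0.51, adjusted p = 0.232) and KCTD21 (0.65, adjusted p = 0.132) lay on opposite sides of 0, a pair chosen after its values were seen.

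Over the 80 pairs the change of the noncoding RNA and that of its partner were hardly related (Pearson's r = 0.04, Spearman's rho = 0.11), a description over genes that share all 6 arrays. Of 27 pairs whose start sites lie within 1000 bases on opposite strands by RefSeq, 20 had changes of the same sign, and r was 0.10. The same sign was seen in 51 of all 80 pairs and in 32 of the 57 pairs with both means at 7 or more. RAB11B-AS1 and RAB11B are such a pair, with starts 331 bases apart on GRCh38.p14. So are WAC-AS1 (0.55) and WAC (-0.29), PCNA-AS1 (-0.02) and PCNA (-0.63), and NIPBL-DT (-0.52) and NIPBL (0.40), of which none passed and which were chosen after their values were seen. PCNA encodes the sliding clamp of DNA replication and NIPBL the loader of cohesin.

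**Figure D4:**
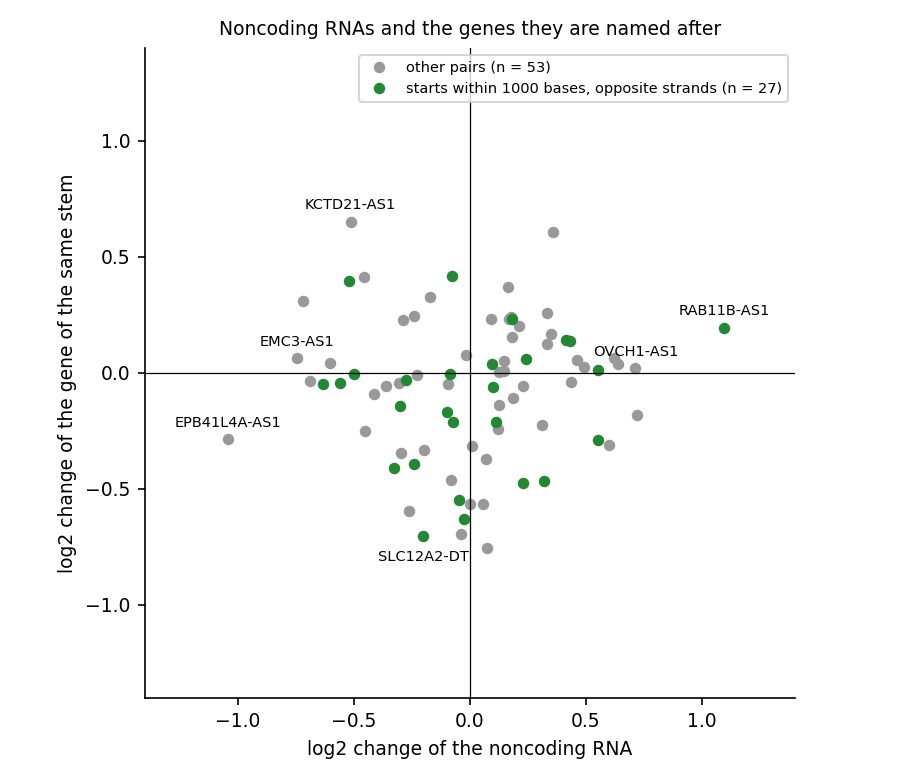
Log2 change of each noncoding RNA (x axis) against that of the gene its symbol is built on (y axis) for 80 pairs; green points are the 27 pairs with start sites within 1000 bases on opposite strands. RAB11B-AS1 lies at 1.10 with its partner at 0.19, and EMC3-AS1 at -0.74 with its partner at 0.06.

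Proteins that handle such RNAs were looked at by lists. Of all genes of mean 7 or more, 7.46% fell and 1.77% rose. Of 18 measured proteins of small nucleolar ribonucleoproteins and their assembly, 4 fell and 0 rose, with a median of -0.61. NUFIP1, an assembly factor, fell by 2.00 (adjusted p = 0.0031) and passed in all 6 fits without 1 array. NOLC1, a nucleolar chaperone of these particles, fell by 1.00, NOP58, a core protein of the box C/D class, fell by 0.78 and PIH1D1, of the R2TP assembly complex, fell by 0.86. NOLC1 lost its call without scrambled siRNA array 2 or 3 (-0.99 to -0.90), PIH1D1 in every such fit except that without UHMK1 siRNA array 3 (-0.89 to -0.68) and NOP58 in all of them (-0.86 to -0.63). Of 40 protein-coding snoRNA hosts listed, only 14 had a probe set with exactly 1 symbol, and these need not stand for the rest. Of the 14, 2 fell and 0 rose: CCT6A, a chaperonin subunit, by 1.11 and NAP1L4, a histone chaperone, by 0.96, with a list median of -0.25. TNPO2 (-0.44) and HSPA9 (-0.49) did not pass. CCT6A passed in all 6 fits without 1 array, and NAP1L4 lost it without UHMK1 siRNA array 3 or any scrambled siRNA array (-0.98 to -0.92).

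Of 16 measured proteins of paraspeckles and speckles, the nuclear bodies built around NEAT1 or visited by MALAT1, 2 fell and 0 rose, with a median of -0.43. NUDT21, a subunit of the cleavage factor that selects polyadenylation sites, fell by 1.35 and passed in all 6 such fits. RBM14, a paraspeckle protein, fell by 1.04 and lost its call without scrambled siRNA array 2 (-1.02), while EWSR1 (-0.57) and SRSF1 (-0.63) did not pass. Of 15 factors of nuclear RNA decay, the exosome nuclease DIS3 fell by 0.97 and the exosome subunit EXOSC3 by 1.07, 0 rose, and the median was -0.22. MTREX (-0.88, adjusted p = 0.068) and SRRT (-0.65, adjusted p = 0.0711) did not pass. DIS3 lost its call without UHMK1 siRNA array 1 or any scrambled siRNA array (-1.04 to -0.90), and EXOSC3 without UHMK1 siRNA array 3 or any scrambled siRNA array (-1.13 to -1.04). Of 13 factors of nonsense-mediated decay, the pathway that removes many spliced snoRNA host transcripts, PNRC2 rose by 0.85 and MAGOH, of the exon junction complex, fell by 0.77, with a median of -0.13, while RBM8A (-0.51) and EIF4A3 (-0.51) did not pass. PNRC2 lost its call without any scrambled siRNA array (0.84 to 0.86), and MAGOH in every fit except that without UHMK1 siRNA array 2 (-0.81 to -0.70). Beside the 1.77% and 7.46% of genes of mean 7 or more that rose and fell, the counts of all these lists are descriptions, and no list was tested as a set. The lists were not held to that mean, and PIH1D1, for one, lay below it at 6.37.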

How the data were processed

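Total RNA of HepG2 cells was hybridised as biotin-labelled cRNA to 6 arrays, 3 per group by the titles. The deposited values are log2 expression values made by the authors, and the submitters' processing notes list RMA and Transcriptome Analysis Console 4.0. A genome build for the probe sets is not given. The table holds 135750 probe sets, of which 36176 have 1 gene symbol in the array's gene table, 1119 have several and 98455 are not listed there. Symbols were updated by Entrez gene ID to RefSeq (GRCh38.p14), and for the 1576 genes with several probe sets the one of highest mean over the 6 arrays was kept, which left 33616 genes. UHMK1 siRNA was compared with scrambled siRNA with limma 3.58.1 in R 4.3.3 (lmFit, then eBayes, on the deposited values of all 6 arrays without covariates, two-sided), with Benjamini-Hochberg adjustment over all 33616 genes. Rose and fell are used for an adjusted p under 0.05. The fit was tested on simulated data. The RNAs described and the lists were chosen with earlier results of these data known. The text names every RNA that passed, the snoRNA hosts by symbol, MALAT1, the 8 of highest mean, the 6 largest changes on each side that did not pass and the 3 on each side of the limit of 7. It also names the partners of those and the 4 genes of smallest p in each pathway list. RNAs named only because a snoRNA lies within them are marked as such. Otherwise the text says that a gene was chosen after its values were seen. Of the marker lists it names a few defining genes, and FGB as the one nearest to passing. Start regions are RefSeq's, matched by gene ID. Other settings were another normalization, a filter on dim genes, other probe set and variance choices, other limits of the mean, a replicate block and leaving out each array.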

Additional observations from a re-analysis of the deposited data

How the results depend on the processing

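The main counts were 2 RNAs higher and 3 lower. Higher RNAs numbered 5 when only genes of mean 5 or more were fitted, 4 with an intensity trend in the variance and 4 when the limit was a mean of 6 (277 RNAs), and 2 to 3 under both normalizations, with averaged probe sets, with the gene table's own symbols and at a limit of 8. Lower RNAs numbered 2 to 4 in all of these. With 1 array left out, 1 to 5 RNAs were higher and 1 to 2 lower. Over all genes, 244 higher and 897 lower became 416 and 1307 with the filter, 406 and 1303 with the trend, 146 and 576 with the block below, and 70 to 237 and 319 to 662 with 1 array left out. No pairing by the numbers in the titles was seen: the correlations of same-numbered deviations were 0.051, 0.028 and -0.043, and not every sample correlated best with its own number. With so few arrays a pairing could go unseen, and the labels do not say whether there was one. With the replicate block, 1 RNA was higher (RAB11B-AS1) and 1 lower (LINC00941). The median change lay between 0.003 (limit of 8) and 0.070 under all settings. Some changes near 0 turned sign. LINC00674 stood at 0.02 after cyclic loess and 0.047 after quantile normalization, and between -0.30 and 0.30 with 1 array left out (above 0 without UHMK1 siRNA array 2 or scrambled siRNA array 1). LINC03009 stood at 0.011 after quantile normalization and between -0.087 and 0.013 with 1 array left out (above 0 without scrambled siRNA array 1), SLC44A3-AS1 between -0.307 and 0.068 (above 0 without scrambled siRNA array 2) and SNHG33 between -0.38 and 0.29 (above 0 without UHMK1 siRNA array 2). EMC3-AS1 did not pass under quantile normalization (-0.69), and MALAT1 passed under cyclic loess (0.69), with averaged probe sets (1.26), with the intensity trend and with the filter (0.68 in both). The causes were not tested. Arrays give no counts, and differences of dim RNAs near background are hard to see.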

Other observations

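Other long noncoding RNAs whose names fall outside the rule were looked at from a list of 29, of which 25 were measured. CYTOR, an RNA studied in cell growth, read 12.90, 13.10 and 13.04 after scrambled siRNA and 11.94, 12.40 and 12.29 after UHMK1 siRNA, and fell by 0.80 (SE 0.17, limma's adjusted p = 0.0358), and 0 rose. With 1 array left out it passed only in the fit that omits UHMK1 siRNA array 2, the others giving -0.86 to -0.67, and it did not pass under quantile (-0.75) and cyclic loess (-0.77) normalization. NORAD, which binds PUMILIO proteins, stood at 0.53 (adjusted p = 0.0866), CCAT1 at -0.77 (adjusted p = 0.147) and CRNDE at 0.50 (adjusted p = 0.164). The list had a median of 0.04, with 13 changes above 0 and 12 below.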
